A study of Drosophila melanogaster with 4 samples.

Results

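The 8 Hox genes of Drosophila melanogaster lie on chromosome arm 3R in a pair of gene complexes, the Antennapedia complex (lab, pb, Dfd, Scr and Antp) and the bithorax complex (Ubx, abd-A and Abd-B). Acetylation of histone H3 at lysine 27 (H3K27ac) across both complexes was taken from chromatin immunoprecipitation and sequencing (ChIP-seq) of wild-type Oregon-R embryos aged 14 to 16 h. The members are the enriched regions, called clusters here, that overlap by at least 1 bp the Antennapedia window, 3R from 2.48 to 2.83 Mb, or the bithorax window, 3R from 12.48 to 12.81 Mb, on FlyBase release 5. In all, 128 of 20014 listed clusters met this rule. They were 36 of 6223 in replicate 1, 42 of 6317 in replicate 2 and 50 of 7474 in the combined list that the authors made from the replicate set. No cluster crossed an edge of either window.

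The series holds 2 ChIP libraries and 2 input libraries, all from embryos of the same strain, genotype and age, and only the ChIP lists were analysed here. Whole embryos were used, so fewer cells carrying the mark and less of the mark per cell cannot be told apart. The lists give no read counts, and the depth behind each cluster is unknown. Whether each replicate had its own embryo collection is not stated in the labels, and the spread between them may be technical.

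Hox genes encode homeodomain transcription factors that give the segments of the body their identity from head to tail. Their order on the chromosome follows the order of the body regions where they act, so in any whole embryo each gene is active in some segments and held silent in others. Silent copies are kept off by Polycomb group proteins, which methylate the same lysine of histone H3 that can be acetylated at active promoters and enhancers, and a lysine cannot carry both marks at once. Of the members, lab acts in the embryonic head and midgut, pb in the adult mouthparts, Dfd in the jaw segments, Scr in the labial segment and the anterior thorax, and Antp in the thorax. Ubx acts in the posterior thorax and the anterior abdomen, abd-A in the abdomen, and Abd-B in the posterior abdomen and the genital segments.

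A gene table of release 6 held 8 of 8 members and gave their order along 3R as lab, pb, Dfd, Scr, Antp, Ubx, abd-A and Abd-B. Among them, zen2, zen, bcd and Ama lie between pb and Dfd, and ftz lies between Scr and Antp. Of these neighbours, zen2, zen, bcd and ftz are homeobox genes related to the Hox genes that do not set segment identity, and Ama encodes a protein with immunoglobulin domains. With positions on release 5 and the gene table on release 6, no cluster was assigned to a gene. The Antennapedia window is therefore described from its lab end to its Antp end, and the bithorax window from its Ubx end to its Abd-B end.

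The bithorax complex was more broadly acetylated than the Antennapedia complex, but at a lower score when averaged over covered bases. Clusters of replicate 1 covered 24.5% of the bithorax window and those of replicate 2 covered 33.2%, a mean of 28.8 ± 6.14% (SD, n = 2). They covered 18.4% and 17.7% of the Antennapedia window (mean 18.1 ± 0.511%). In both replicates the bithorax complex was the more covered, and the values of the complexes did not overlap. The difference, Antennapedia minus bithorax, was -6.06 percentage points in replicate 1 and -15.5 in replicate 2, a mean of -10.8 ± 6.65 (SD, n = 2). The bithorax window held 20 and 27 clusters, or 6.06 and 8.18 per 100 kb, against 16 and 15 clusters, or 4.57 and 4.29 per 100 kb, in the Antennapedia window.

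Each cluster carries a score deposited by the authors, whose values are spaced like a log2 ratio. Averaged over covered bases, the score was 0.93 in replicate 1 and 0.98 in replicate 2 for the Antennapedia complex, with a mean of 0.96 ± 0.04 (SD, n = 2). For the bithorax complex it was 0.74 and 0.77 (mean 0.75 ± 0.02). The Antennapedia complex was the higher in both replicates, by 0.20 ± 0.01 score units. Wide clusters weigh most in this average. It takes in 1 Antennapedia cluster of 14.2 kb and score 1.78 in replicate 1, and 12.8 kb and 1.92 in replicate 2. With each window cut into 5 equal parts, the Antennapedia parts that held clusters but not this one scored 0.58 to 0.92. The bithorax parts scored 0.54 to 0.92. Median cluster scores were 0.54 and 0.58 in the Antennapedia complex and 0.58 and 0.55 in the bithorax complex, an order that changed between replicates. A contrast was called larger than the spread where it had 1 sign in both libraries and its mean was greater than its SD, and the contrasts of covered share, of clusters per 100 kb and of score all met this rule. With 2 replicates the rule is lenient, since 39.2% of contrasts between equal, normally distributed values would meet it, and an exact two-sided sign-flip permutation test cannot give a p below 0.5, the value it gave for each of these contrasts.

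Set against 80 other windows of 330 kb laid end to end along 3R, the bithorax complex was more covered than the median window. The windows had a median covered share of 18.5% in replicate 1 and 19.2% in replicate 2, so the complex lay 5.96 and 13.9 percentage points above it, a mean of 9.94 ± 5.63 (SD, n = 2). On the mean of the replicates, 22 windows were more covered and 58 less. The upper quartile of the windows was 30.8% on that mean, above the 28.8% of the complex. In each replicate the quartile was 30.2%, above the 24.5% of the complex in replicate 1 and below its 33.2% in replicate 2. The excess over the median met the rule for the spread (exact two-sided sign-flip permutation p = 0.5, the smallest possible). Among clusters above the median score of their list it was 2.44 ± 2.69 points, which did not.

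The score of the bithorax complex stood near the bottom of 3R. The windows had a median score per covered base of 1.00 in replicate 1 and 1.08 in replicate 2. The complex was below by 0.27 and 0.31 score units, a mean difference of -0.29 ± 0.03 (SD, n = 2), which exceeded the spread (exact two-sided sign-flip permutation p = 0.5). Only 3 of 80 windows had a lower score in replicate 1, 2 of 80 in replicate 2 and 1 of 80 in the combined list. As a description with the values of the complex itself as limits, of the 25 windows more covered than the complex in replicate 1, 0 had a lower score, and their lowest was 0.80. Of the 17 more covered in replicate 2, 0 had a lower score, and their lowest was 0.94.

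The coverage of the Antennapedia complex did not differ from the median window of 3R by more than the spread, a call that depended on the windows and clusters used. Against 75 windows of 350 kb, with medians of 18.1% and 19.7%, it lay 0.345 points above in replicate 1 and 1.98 points below in replicate 2, with a mean difference of -0.818 ± 1.65 (SD, n = 2; exact two-sided sign-flip permutation p = 1). The replicates thus differed in direction, and 41 windows were more covered and 34 less on their mean. In 5 of the 7 alternatives that use both replicates the complex was called less covered than the windows, by a mean difference of -1.81 to -3.92 points. Its score per covered base was 0.07 and 0.11 units under the medians of 1.00 and 1.09, a mean of -0.09 ± 0.03 that met the rule (exact two-sided sign-flip permutation p = 0.5). This difference changed sign, to 0.02 ± 0.02, when all windows were narrowed by 20 kb on each side, and to 0.09 with clusters above the median score alone.

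**Figure D1:**
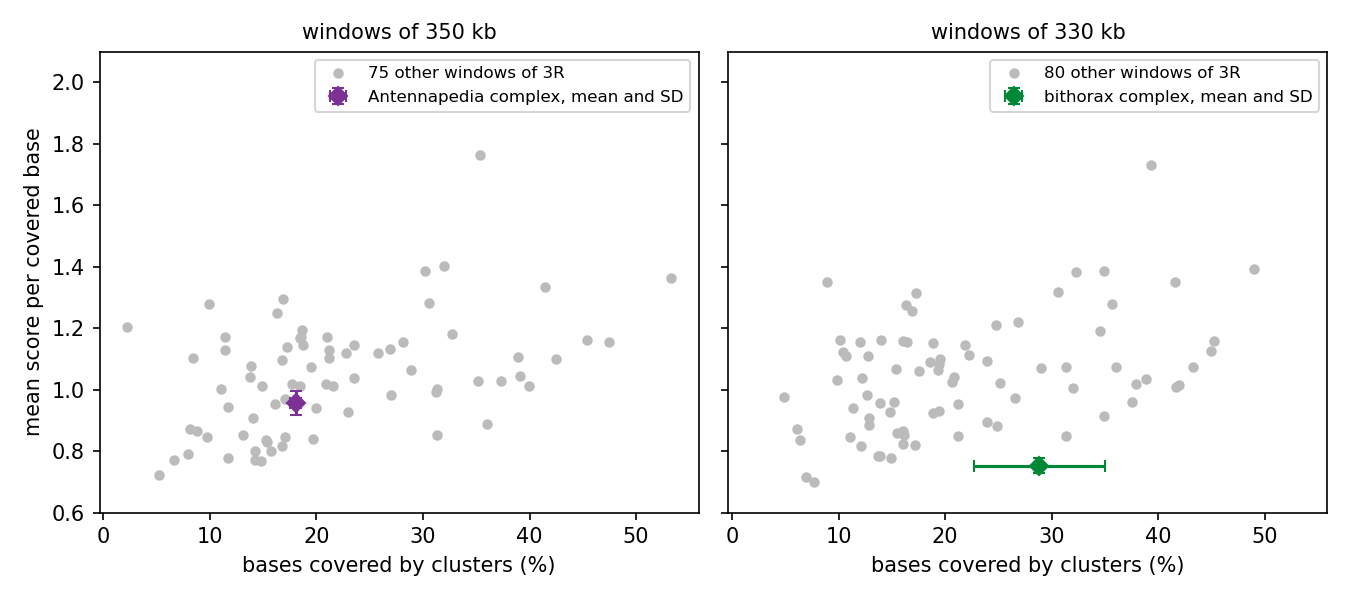
Each point is a window of 3R, with the percentage of bases covered by clusters on the x axis and the mean score per covered base on the y axis, both as means of 2 replicates. Grey points are the 75 windows of 350 kb (left) and 80 windows of 330 kb (right), and diamonds with SD bars are the complexes. The bithorax complex lies at 28.8% and 0.75, below every grey point of equal or greater coverage. That comparison takes the values of the complex itself as limits, and only 2 of the 80 windows scored lower at any coverage. The Antennapedia complex, at 18.1% and 0.96, lies within the cloud.

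Clusters on either side of the complexes gave the local setting. The 330 kb just below the bithorax window were covered at 21.9 ± 0.631% and the 330 kb just above at 15.8 ± 0.163%, against 28.8 ± 6.14% inside (SD, n = 2). In each replicate the complex was more covered than both flanks, and its score of 0.75 ± 0.02 was under the 0.87 ± 0.06 and 0.95 ± 0.10 of the flanks. The 350 kb flanks of the Antennapedia window were covered at 20.4 ± 0.276% and 18.5 ± 0.734%, against 18.1 ± 0.511% inside. Their scores of 1.22 ± 0.02 and 1.46 ± 0.03 were above the 0.96 ± 0.04 of the complex in both replicates.

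Within the Antennapedia complex, acetylation was absent from both replicate lists at the lab end. Neither replicate had a cluster in the first 105.3 kb (replicate 1) or 105.4 kb (replicate 2) of the window. This empty stretch reached beyond the window, from 2295029 to 2585297 in replicate 1 (290.3 kb) and from 2308279 to 2585428 in replicate 2 (277.1 kb). It was the second longest stretch without a cluster on 3R in replicate 1, ranking 2 of 1326, and the longest in replicate 2, ranking 1 of 1376, where the median stretch was 5.07 and 5.03 kb. The combined list placed 2 narrow clusters in the 277.0 kb that were empty in both replicates, of 1720 and 1238 bp. The wider of these, from 2482096 to 2483816, lay inside the Antennapedia window with a score of 0.15, and overlapped no replicate cluster. Without a known depth, no limit can be given for the acetylation that such an empty stretch could hold.

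The next part of the window, still on the lab side of its middle, began with a strong cluster from 2585304 to 2594050 in the combined list (8.75 kb, score 1.07). The replicates scored it at 1.11 and 1.20, with a mean of 1.15 ± 0.06 (SD, n = 2). It was followed by weaker clusters from 2594944 to 2600094 (score 0.40) and from 2600834 to 2604798 (score 0.41), each found in both replicates. After an empty stretch of 29.7 kb in replicate 1 and 29.4 kb in replicate 2 came the strongest cluster of either complex.

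This cluster spanned 14.0 kb, from 2632994 to 2647040, with a combined score of 1.80. Its score was 1.78 over 14.2 kb in replicate 1 and 1.92 over 12.8 kb in replicate 2, with a mean of 1.85 ± 0.10 (SD, n = 2). It ranked 22 of 1651 combined clusters on 3R by score and 78 by width. Among the 96 clusters of 3R that were at least 10 kb wide in replicate 1, 13 scored higher and 82 lower, and among the 124 in replicate 2, 13 scored higher and 110 lower. A weak cluster from 2647138 to 2649500 (score 0.42) adjoined it. Next came another empty stretch, of 80.2 kb in replicate 1 and 88.8 kb in replicate 2.

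The Antp end held many clusters of moderate score. The cluster from 2742316 to 2751334 (9.02 kb, combined score 0.78) scored 0.84 in replicate 1 and 0.88 in replicate 2. That from 2759688 to 2764920 (5.23 kb, combined score 0.78) scored 0.76 and 0.85. Beyond these lay a closely spaced series, of which the cluster from 2806748 to 2813186 (6.44 kb) had a combined score of 0.55, with 0.56 and 0.64 in the replicates. The last, from 2816454 to 2825370 (8.92 kb, score 0.48), was broken into 3 clusters in replicate 1 and 2 in replicate 2. Scores above 1 were thus limited to 2 clusters, on the lab side and centre of the window, while coverage was highest at the Antp end. Scores showed no steady decline along the window. Weak clusters beside these 2 had combined scores of 0.40 to 0.42, within the range of 0.22 to 0.78 found toward Antp.

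**Figure D2:**
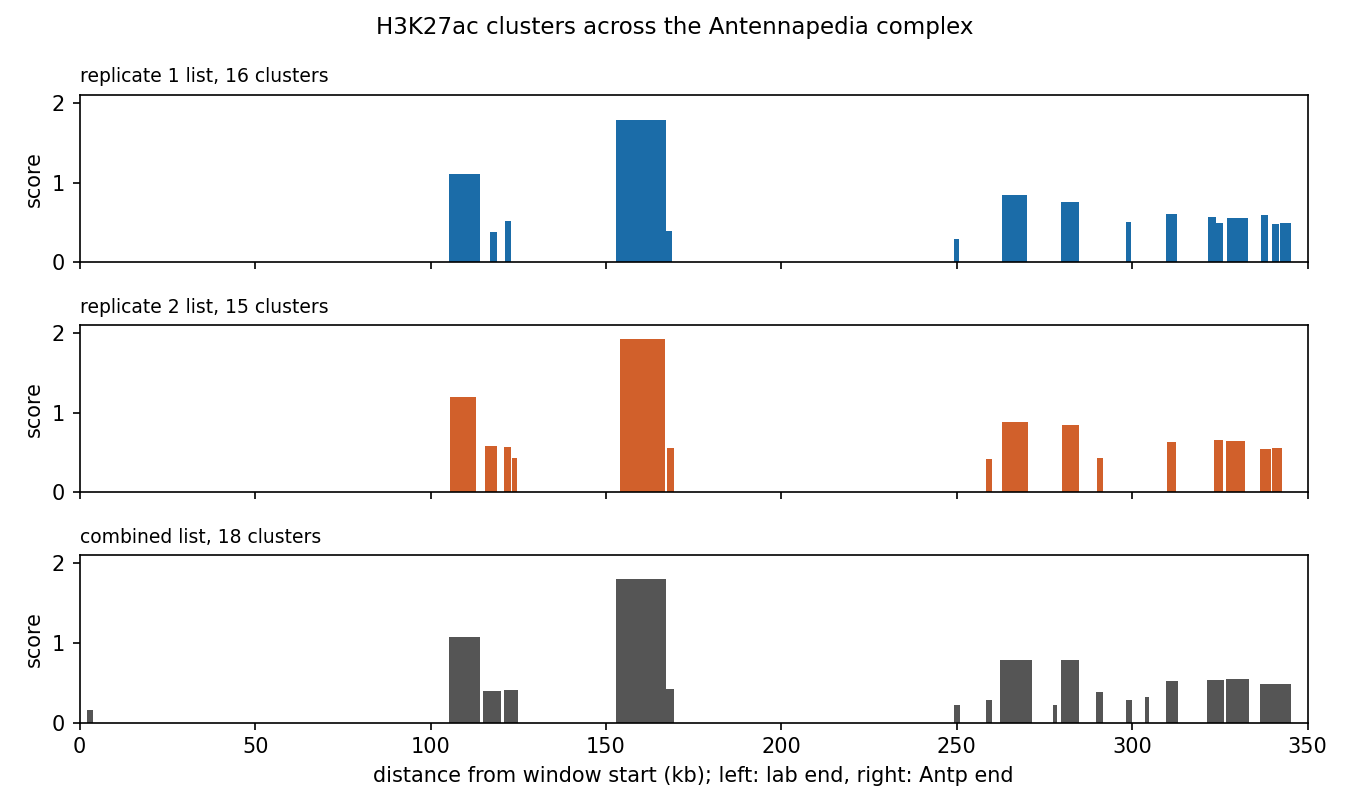
Bars are H3K27ac clusters across the 350 kb Antennapedia window in the replicate 1, replicate 2 and combined lists, with bar width to scale, the deposited score on the y axis and the distance from the window start in kb on the x axis. The tallest bar, 1.78 and 1.92 in the replicates, stands between long empty stretches, and the first 105.3 kb at the lab end hold no replicate cluster.

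The bithorax complex was laid out differently, with its acetylation concentrated in the middle. At the Ubx end the cluster from 12486124 to 12492968 (6.84 kb, combined score 0.80) scored 0.75 in replicate 1 and 0.92 in replicate 2, with a mean of 0.84 ± 0.12 (SD, n = 2). Narrower clusters of combined score 0.31 to 0.57 followed at intervals up to 12560286. From there to 12607822 the combined list gave 7 clusters of 1.03 to 2.18 kb and scores of 0.28 to 0.37, of which replicate 2 had 3 and replicate 1 had 0.

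In the middle, combined clusters lay less than 2 kb apart from 12617930 to 12700520, a run of 82.6 kb that held 8 clusters and was 89.9% covered. It was the third longest such run on 3R, ranking 3 of 1097, a limit of 2 kb having been chosen after the clusters were seen. In replicate 2 the run spanned 66.3 kb, from 12634132 to 12700450, and ranked 2 of 995. In replicate 1 the longest run was 23.0 kb, from 12672480 to 12695517, and ranked 30 of 954, so the extent of the run depended on the library.

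The widest cluster of either complex closed the run, from 12670470 to 12700520, with a width of 30.1 kb and a combined score of 0.85. It ranked 15 of 1651 on 3R by width but 372 by score, and each replicate divided it into 3 clusters. The widest piece was 17.0 kb with score 0.83 in replicate 1 and 18.1 kb with score 0.98 in replicate 2. Also in the run were clusters from 12633148 to 12646550 (13.4 kb, score 0.80), from 12647778 to 12656626 (8.85 kb, score 0.86) and from 12625458 to 12632372 (6.91 kb, score 0.60). The second of these scored 1.09 in replicate 1, the highest value of the bithorax complex in that list, and 0.95 in replicate 2.

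Wide clusters elsewhere on 3R mostly scored higher. Of the 96 clusters at least 10 kb wide in replicate 1, with a median score of 1.39, 91 and 93 scored higher than the 2 bithorax clusters of that width. Of the 124 in replicate 2, with a median of 1.47, 106 to 116 scored higher than the 3 bithorax clusters. The Antennapedia cluster of the same width class lay on the other side of both medians.

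Toward the Abd-B end acetylation was sparse. Replicate 1 had no cluster for 106.2 kb, from 12700349 to 12806574. Replicate 2 had narrow clusters from 12711200 to 12712732 (score 0.57) and from 12780274 to 12781668 (score 0.38) within that span, and its longest empty stretch was 67.5 kb, from 12712732 to 12780274. In the combined list the longest was 30.98 kb, from 12749284 to 12780264. The cluster that ended the empty span, from 12806452 to 12809048 (2.60 kb, combined score 0.69), was in both replicates, with scores of 0.66 and 0.85. The longest empty stretch inside the window was 18.5 ± 27.4 kb longer in the Antennapedia than in the bithorax complex (SD, n = 2; exact two-sided sign-flip permutation p = 1), a difference within the spread. The Antennapedia stretch was cut at the window start for this contrast. Uncut, it was 290.3 kb in replicate 1 and 277.1 kb in replicate 2, against 106.2 and 67.5 kb for the bithorax stretch.

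**Figure D3:**
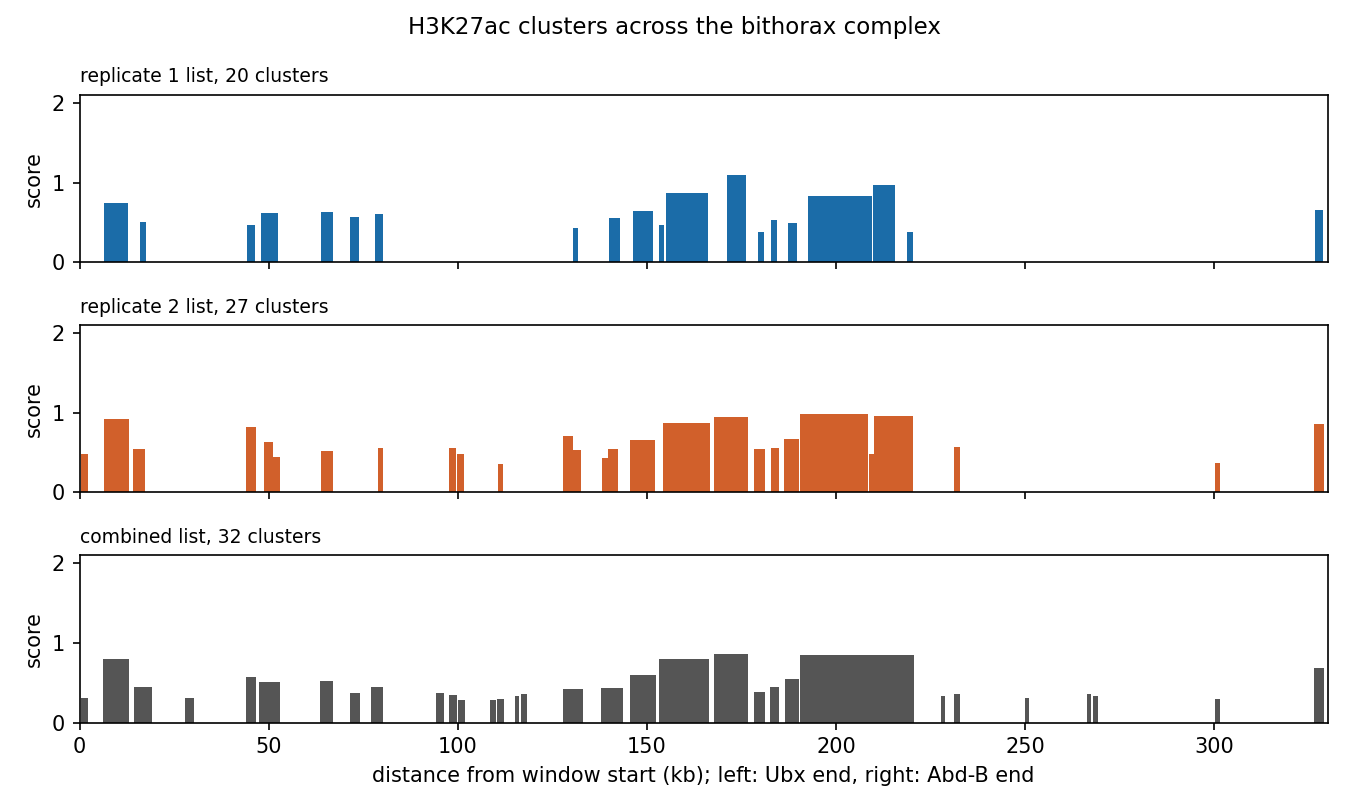
Bars are H3K27ac clusters across the 330 kb bithorax window in the replicate 1, replicate 2 and combined lists, with bar width to scale, the deposited score on the y axis and the distance from the window start in kb on the x axis. Clusters crowd the middle of the window, where the combined list has an 82.6 kb run, and thin out toward the Abd-B end. The y axis is that of the Antennapedia map, and no bar rises above 1.09.

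Division of each window into 5 equal parts, of 70 kb for the Antennapedia and 66 kb for the bithorax complex, showed the same layout in both replicates. In the Antennapedia complex the part at the lab end was covered at 0% in both replicates, and the next 3 at 19.2 ± 1.90%, 22.1 ± 1.10% and 13.0 ± 0.511%. The part at the Antp end was covered at 36.1 ± 3.87% and held 39.9 ± 3.15% of all covered bases of the complex (SD, n = 2). In the bithorax complex the part at the Ubx end was covered at 28.4 ± 4.36% and the next at 13.7 ± 5.36%. The middle part was covered at 55.7% in replicate 1 and 74.9% in replicate 2 (mean 65.3 ± 13.6%) and held 45.3 ± 0.245% of the covered bases. The remaining parts were covered at 32.1 ± 5.51% and, at the Abd-B end, 4.75 ± 1.90%. In each replicate the middle part was the most covered of the bithorax complex and the Abd-B end the least.

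Coverage and score did not run together along the Antennapedia complex. The most covered part, at the Antp end, had a score per covered base of 0.58 in replicate 1 and 0.64 in replicate 2. The middle part, which held the strongest cluster, had 1.63 and 1.73 at a lower coverage. All other Antennapedia parts with clusters scored 0.58 to 0.92. Along the bithorax complex the scores of the 5 parts stayed between 0.54 and 0.92. On a finer scale, 19 of 35 bins of 10 kb in the Antennapedia window had no cluster in either replicate, and 6 were at least 50% covered in both. Of 33 bins in the bithorax window, 9 had no cluster in either replicate and 7 were at least 50% covered in both. The most covered bins were 12680000 to 12690000, at 96.2% and 98.6%, and 2640000 to 2650000, at 88.1% and 89.7%.

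**Figure D4:**
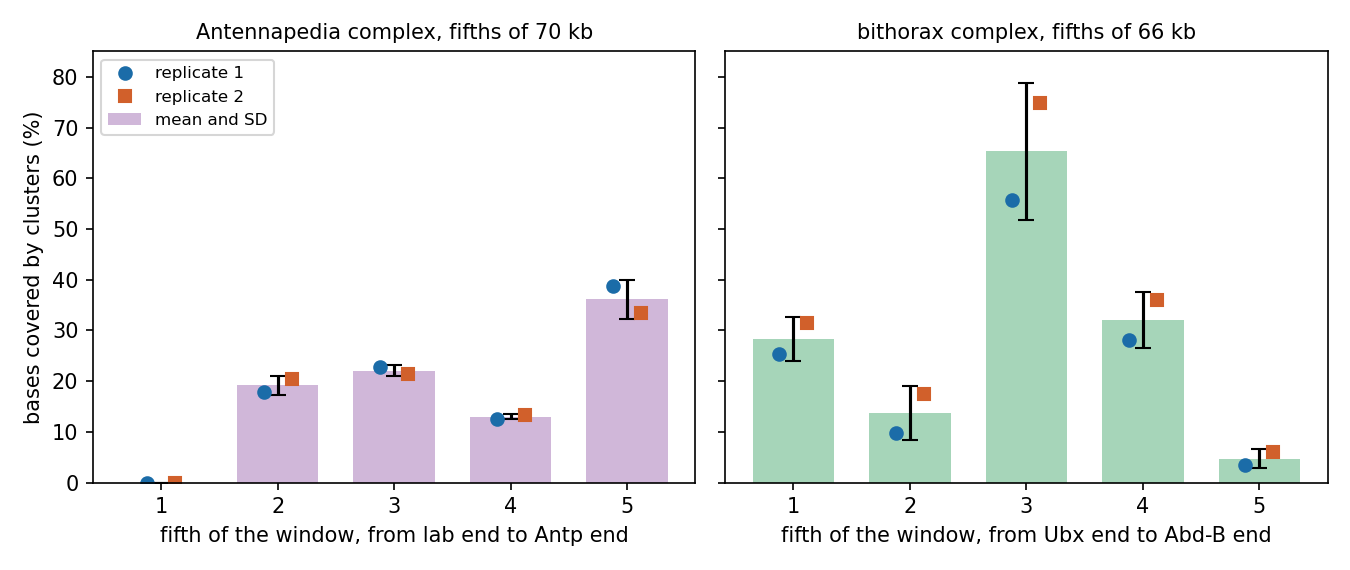
The percentage of bases covered by clusters is plotted for 5 equal parts of each window, with bars for the mean of 2 replicates, error bars for the SD, circles for replicate 1 and squares for replicate 2. Coverage is 0% at the lab end and highest, at 36.1%, at the Antp end of the Antennapedia complex. In the bithorax complex it peaks in the middle at 65.3% and falls to 4.75% at the Abd-B end.

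Most clusters of the complexes were found in both libraries. In the Antennapedia complex 14 of 16 replicate 1 clusters overlapped a replicate 2 cluster (87.5%, exact 95% interval 61.7 to 98.4%), and in the bithorax complex 19 of 20 (95%, 75.1 to 99.9%). Over all arms and scaffolds the share was 88.9%. In the other direction, 12 of 15 Antennapedia clusters of replicate 2 (80%, 51.9 to 95.7%) and 19 of 27 bithorax clusters (70.4%, 49.8 to 86.2%) had a partner, against 86.1% over the whole list. All 4 intervals, which cover counting error only, include the share of the whole list, the last of them only at its upper end. They are wide and treat neighbouring clusters as independent, though some are pieces of 1 combined cluster. They therefore cannot show that sharing was usual in the complexes. Of the combined clusters, 11 of 18 in the Antennapedia and 16 of 32 in the bithorax complex overlapped clusters of both replicates, where the share of the whole list was 65%. Those overlapping neither replicate were 3 of 18 and 9 of 32, with 16.6% over the whole list.

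Clusters found in a single library were all narrower than the median 3R cluster of their list, of 2857.5 bp in replicate 1 and 2923 bp in replicate 2. Of all Antennapedia clusters, 7 of 16 in replicate 1 and 8 of 15 in replicate 2 were wider than this median. Of all bithorax clusters, 9 of 20 and 9 of 27 were. Replicate 1 alone had 2 in the Antennapedia complex, from 2729182 to 2730675 (score 0.29) and from 2778212 to 2779751 (score 0.51). It had 1 in the bithorax complex, from 12551547 to 12553793 (score 0.57). Replicate 2 alone had 3 in the Antennapedia complex, of 1352 to 1906 bp and scores of 0.43 to 0.44, starting at 2603318, 2738307 and 2769849. Its 8 in the bithorax complex were 1394 to 2456 bp wide with scores of 0.35 to 0.71. The replicate 2 clusters starting at 2603318, 12607870 and 12618009 lay only 0.16 to 0.26 kb from a replicate 1 cluster.

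The replicates differed more over the bithorax complex than over any of the 80 equal windows of 3R. Replicate 2 covered 28.6 kb more of it than replicate 1, a difference of 8.68 percentage points. In the 80 windows the same difference had a median of 1.10 points and ranged from -2.65 to 7.78. Over the Antennapedia complex the difference, replicate 2 minus replicate 1, was -0.722 points, and 66 of 75 windows had a higher value. Bases covered in both replicates made up 65.1% of those covered in either for the bithorax complex, 70.2% for the Antennapedia complex and 79.0% for the whole of 3R. For the window as a whole, the SD between replicates was 6.14 points in the bithorax and 0.511 in the Antennapedia complex.

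Scores of paired clusters ranked alike in the Antennapedia complex and less so in the bithorax complex. Among clusters that overlapped only each other, the Antennapedia complex had 10 pairs, and their scores had a Pearson r of 0.99 and a Spearman rho of 0.82. The bithorax complex had 13, with an r of 0.68 and a rho of 0.53. Across 4403 such pairs of all arms and scaffolds r was 0.93 and rho was 0.88. These correlations run across regions of the same 2 libraries, the bithorax scores span a narrower range, and the difference between them was not tested. The SD of the score difference within pairs was 0.07 in the Antennapedia and 0.14 in the bithorax complex, against 0.15 over all pairs. Replicate 2 had the higher score in 9 of 10 and 9 of 13 pairs, against 67.1% over all pairs. The largest gap among these pairs was in the bithorax cluster from 12524294 to 12526271 of replicate 1, at 0.47 and 0.82.

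**Figure D5:**
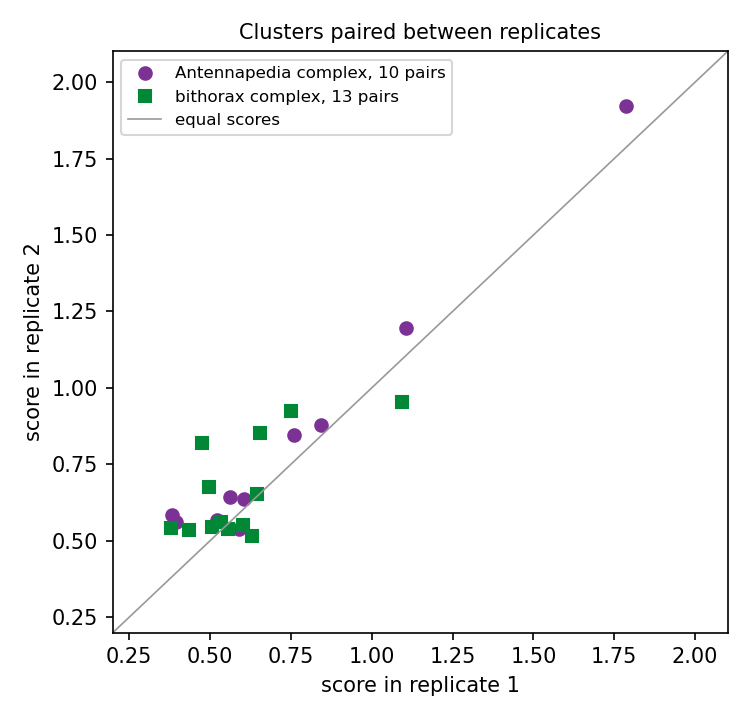
Points are clusters paired between the replicates, with the replicate 1 score on the x axis and the replicate 2 score on the y axis, as circles for the 10 Antennapedia pairs and squares for the 13 bithorax pairs, and a line of equal scores. The Antennapedia pairs extend to 1.78 and 1.92, while the bithorax pairs lie between 0.38 and 1.09 and scatter more widely than the Antennapedia pairs. The SD of the score difference was 0.07 for Antennapedia and 0.14 for bithorax pairs, against 0.15 over all 4403 pairs of the lists.

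Single clusters of both complexes were mostly weak for 3R. Scores above the median of the 3R clusters, which 50% of these exceed by definition, were reached by 4 of 16 Antennapedia and 5 of 20 bithorax clusters in replicate 1. In replicate 2 the counts were 4 of 15 and 8 of 27, and in the combined list 8 of 18 and 10 of 32. The median Antennapedia score was 0.54 in replicate 1 and 0.58 in replicate 2, the median bithorax score 0.58 and 0.55, and the median of all 3R clusters 0.66 and 0.70. Median widths were 2205.5 and 2948 bp in the Antennapedia complex and 2294.5 and 2456 bp in the bithorax complex, where those of 3R were 2857.5 and 2923 bp. Scores above 1 were reached by 2 Antennapedia clusters in each replicate, and by 1 bithorax cluster in replicate 1 and 0 in replicate 2. Over the whole of 3R they were reached by 307 of 1326 clusters in replicate 1 and 378 of 1375 in replicate 2.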

How the data were processed

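Per the labels' protocols, Oregon-R embryos were crosslinked with 1.8% formaldehyde. The submitters' processing notes name Bowtie 0.12.7 as the aligner. Not given in the sources used here are the caller of enriched regions, its settings and how replicates were joined. Lists of enriched regions were deposited by the authors, called per ChIP library and for the replicate set, each region with a score of unstated scale, on FlyBase release 5 per the file headers. Pairs of distinct scores exactly 1 apart (tolerance 1e-09) numbered 36, 43 and 20 in the replicate 1, replicate 2 and combined lists, and 0, 0 and 1 for a natural log doubling, so the spacing is read as that of a log2 ratio. Scores describe and rank regions within a list.

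Width was end minus start. Covered bases, score per covered base and empty stretches were computed per window, against equal windows laid end to end from the start of 3R, leaving out those touching a complex. A region of replicate 1 starts at 0, so positions may be off by 1 base. Differences were taken within each replicate, with an exact sign-flip test. The window functions were checked on 100 simulated lists and recovered 100. Named clusters are, per complex, the 5 widest and 5 highest combined clusters found in both replicates, clusters found in a single replicate, the longest empty stretches and the extreme bins. Neighbours and the comparison with wide clusters were added after the values were seen. Members and lists were chosen with earlier results of these data known. Gene order came from a release 6 gene table, without converting positions. Input lists were not analysed here. The tools were SciPy 1.17.1, pandas 2.3.3 and NumPy 2.4.6 under Python 3.11.15.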

Additional observations from a re-analysis of the deposited data

How the results depend on the processing

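Keeping clusters above the median score of their list, merging those less than 500 bp apart, moving window edges by 20 kb, other sets of windows, a reciprocal overlap of 50% and each replicate alone were tried. Of 68 alternative values, 53 kept their direction and call or moved within the spread or interval. The Antennapedia covered share minus the window median, not called as reported, was called at -3.48 points with clusters above the median score, -3.92 with widened and -1.81 with narrowed windows, -1.99 with windows every 10 kb and -2.98 with windows of the 5 long arms. It ranged from -1.98 to 0.345 in single replicates. Its score difference turned to 0.089 with clusters above the median score and to 0.025 with narrowed windows. The bithorax excess in coverage lost its call at 2.44 points above the median score, and ranged from 5.96 to 13.9 in single replicates. The difference in the longest empty stretch was -19.5 kb above the median score, 38.5 kb with widened windows, where it was called, and -0.928 to 37.9 kb in single replicates. The Antennapedia stretch ends at the window edge by construction. Above the median score, 100% of the Antennapedia clusters of replicate 1 and of replicate 2, and 100% of the bithorax clusters of replicate 1, overlapped the other replicate, against 71.4% of the bithorax clusters of replicate 2. With reciprocal overlap of 50% that last share was 59.3% and the other shares 75 to 80%. The score filter left only part of the 15 to 27 clusters per window and list. No share over the whole list was computed under either setting, so whether these shares are unusual cannot be told. The cause was not tested in these cases. Contrasts between the complexes in coverage, clusters per 100 kb and score, and the bithorax score against the windows, kept direction and call under every alternative that uses both replicates. None of the alternatives left out the strongest Antennapedia cluster, so how far the score contrast between the complexes rests on it was not tested. Outside the part of the window that holds this cluster, Antennapedia parts with clusters scored 0.58 to 0.92 per covered base. Bithorax parts scored 0.54 to 0.92, so the contrast is not seen across the parts in general. No paired analysis was possible because, of the ChIP and input groups that share replicate numbers, the lists at hand are of ChIP alone. This concerns groups of samples, and contrasts between windows were paired within each library. Depth is unknown and limits what an empty stretch shows.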
